A study of Mus musculus with 20 samples.

Results

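The GIMAP genes encode GTPases of immunity-associated proteins, a family of small GTP-binding proteins that sit on internal membranes of lymphocytes. They are known from mature T and B cells, where loss of some family members shortens the survival of resting lymphocytes, and they lie side by side in a single cluster. The 8 genes described here, Gimap1, Gimap3, Gimap4, Gimap5, Gimap6, Gimap7, Gimap8 and Gimap9, were chosen by symbol and matched to mouse Ensembl gene identifiers, 8 of the 56239 genes in the count table. Early in the time course 4 of them (Gimap8, Gimap6, Gimap9 and Gimap5) were below their starting level, and late in it 4 of them (Gimap8, Gimap6, Gimap5 and Gimap3) were well above it. Gimap4 stayed close to the detection floor, and for Gimap1 and Gimap7 the count table holds no information.

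The cells were B3, a mouse pre-B cell line, transduced with a retrovirus for IKZF1 (Ikaros, a zinc finger regulator of lymphocyte development) fused to ERt2, a modified ligand-binding domain of the estrogen receptor. The line was a GFP-sorted pool, and the fusion moves to the nucleus when 4-hydroxytamoxifen (4-OHT) is added. Chromatin-associated RNA, which is enriched in nascent transcripts, was sequenced before 4-OHT (0 h, untreated) and after 0.5, 1, 2, 6, 12, 15, 18, 21 and 24 h with 500 nM 4-OHT. Each of the 10 time points had 2 replicates, which makes 20 libraries. All groups carried the fusion, and 4-OHT-treated cells without it were not analysed here, so that IKZF1 induction, 4-OHT itself and time in culture cannot be told apart. The labels do not say whether replicates are separate cultures, so p-values measure only the spread between these samples, which may be technical.

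Libraries held 33296158 to 46868954 counts (median 40943260), and 3 counts, taken as the detection floor, corresponded to 0.0621 to 0.102 CPM (counts scaled to library size with edgeR's TMM factors). The chi-square of counts between replicates, per degree of freedom, was 1.31 to 1.93 up to 6 h and after 15 h, and larger elsewhere, at 12.1 after 12 h, 18.6 after 18 h, 5.62 after 21 h and 2.87 after 24 h. Of 10 pre-B markers 8 averaged at least 1 CPM over the 20 libraries, and the other 2 (Rag1 and Rag2, listed at 0) lie inside other genes. The average hides changes with time, since Vpreb1 went from 17.6 CPM at 0 h to 0.370 at 24 h and Igll1 from 169 to 0.985. By the rule given next, these 2 were called down at 24 h and 5 other pre-B markers were called up. To be called, a gene needed a fold change above 2 and an adjusted p under 0.01 in edgeR's quasi-likelihood test. Benjamini-Hochberg adjustment ran over the 16601 genes that reached 10 counts in 2 or more libraries, and every adjusted p below comes from this test. In such bulk RNA, a change in the number of cells that transcribe a gene and a change in transcription per cell cannot be told apart.

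The cluster spans 123.6 kb of chromosome 6 in GRCm38 (mm10), from 48647234 to 48770851, with 6 members on the plus and 2 on the minus strand. In order along the plus strand are Gimap8 (ENSMUSG00000064262, 48647234 to 48660875), Gimap9 (ENSMUSG00000051124, 48676129 to 48679114), Gimap4 (ENSMUSG00000054435, 48684549 to 48692060), Gimap7 (ENSMUSG00000043931, 48718621 to 48724636), Gimap1 (ENSMUSG00000090019, 48739054 to 48743795) and Gimap5 (ENSMUSG00000043505, 48746197 to 48754210). Gimap6 (ENSMUSG00000047867, 48701582 to 48708225) and Gimap3 (ENSMUSG00000039264, 48764464 to 48770851) are on the minus strand. GENCODE M21 also annotates Gm28053 (ENSMUSG00000098715, 48718607 to 48752644, plus strand), a read-through gene that covers all of Gimap7 and Gimap1 and most of Gimap5. Only 1566 bases at the 3′ end of Gimap5, 19.5% of its span, lie outside Gm28053.

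**Figure D1:**
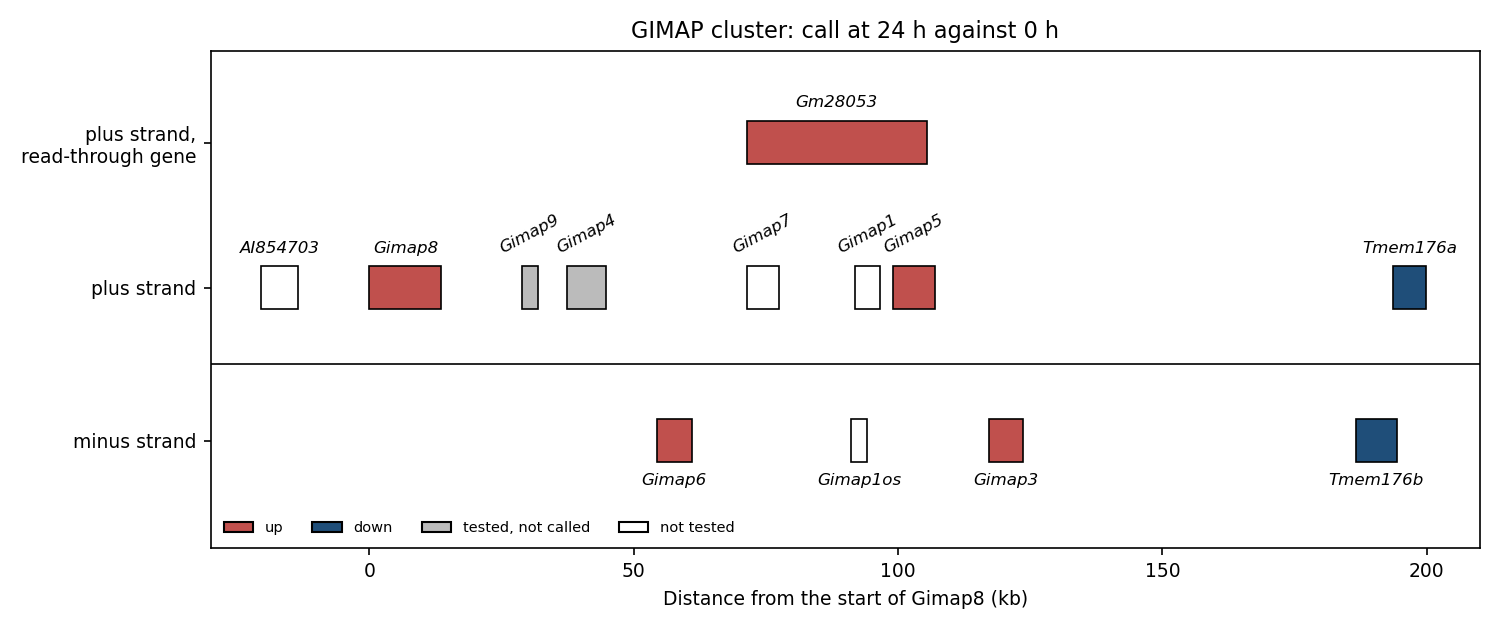
Map of the GIMAP cluster and its nearest measured surroundings, with distance from the start of Gimap8 in kb on the x axis and strand on the y axis. Each box is a gene, coloured by its call at 24 h against 0 h. Gimap8, Gimap6, Gimap5, Gimap3 and the read-through gene Gm28053 were called up, Gimap9 and Gimap4 were tested and not called, and Gimap7 and Gimap1 inside Gm28053 were not tested.

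Because members that moved together sit under separate start sites, the promoter windows of the 4 members called up at 24 h and of Gimap9, which was not, are shown. They are the RefSeq windows (GRCm38.p6) from 250 bases before to 50 after the annotated start, read 5′ to 3′ on the strand of the gene. Capitals mark GGAA, GGGA and their reverse complements TTCC and TCCC, the core letters of sites that IKZF1 is known to recognise. They come from chr6:48646984-48647283 (plus) for Gimap8, chr6:48708195-48708494 (minus) for Gimap6, chr6:48745947-48746246 (plus) for Gimap5, chr6:48770802-48771101 (minus) for Gimap3 and chr6:48675885-48676184 (plus) for Gimap9.
Gimap8: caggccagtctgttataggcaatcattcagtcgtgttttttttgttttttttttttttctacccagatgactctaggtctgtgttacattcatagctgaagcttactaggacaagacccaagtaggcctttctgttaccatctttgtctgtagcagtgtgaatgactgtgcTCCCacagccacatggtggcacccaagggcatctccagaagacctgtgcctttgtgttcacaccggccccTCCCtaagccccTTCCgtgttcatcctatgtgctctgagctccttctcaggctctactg
Gimap6: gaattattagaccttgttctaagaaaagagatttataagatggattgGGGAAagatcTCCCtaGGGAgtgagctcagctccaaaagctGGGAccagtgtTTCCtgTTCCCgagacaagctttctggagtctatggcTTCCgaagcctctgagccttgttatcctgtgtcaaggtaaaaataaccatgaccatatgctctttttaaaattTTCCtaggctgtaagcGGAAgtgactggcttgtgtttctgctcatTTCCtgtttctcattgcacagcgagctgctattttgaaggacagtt
Gimap5: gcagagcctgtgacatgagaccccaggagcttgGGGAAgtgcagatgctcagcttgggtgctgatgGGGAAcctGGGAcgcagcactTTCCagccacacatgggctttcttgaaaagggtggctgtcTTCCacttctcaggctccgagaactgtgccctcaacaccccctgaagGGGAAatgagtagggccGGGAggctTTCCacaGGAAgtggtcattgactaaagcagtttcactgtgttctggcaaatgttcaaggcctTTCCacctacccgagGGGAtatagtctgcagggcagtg
Gimap3: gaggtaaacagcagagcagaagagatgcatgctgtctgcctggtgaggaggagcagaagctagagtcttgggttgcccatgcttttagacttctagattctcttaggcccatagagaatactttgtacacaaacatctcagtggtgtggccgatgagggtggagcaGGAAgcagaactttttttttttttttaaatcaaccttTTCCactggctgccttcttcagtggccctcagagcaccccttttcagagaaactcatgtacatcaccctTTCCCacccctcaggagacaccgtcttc
Gimap9: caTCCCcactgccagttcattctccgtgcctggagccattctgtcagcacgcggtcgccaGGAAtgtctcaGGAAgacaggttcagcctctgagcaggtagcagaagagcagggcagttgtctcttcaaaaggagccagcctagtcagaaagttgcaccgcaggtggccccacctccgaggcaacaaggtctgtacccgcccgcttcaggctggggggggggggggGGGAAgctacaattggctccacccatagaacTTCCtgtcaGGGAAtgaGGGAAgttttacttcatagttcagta

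Windows were found for all 8 members, 9 in all because Gimap8 has a second annotated start. Counting both strands and overlapping matches, the 4-base letters occurred 14 times in the Gimap5 window and 12 times in that of Gimap6. There were 10 matches for Gimap9, 7 for Gimap4, 6 for Gimap1, 4 each for Gimap7 and Gimap3, and 3 and 6 in the windows of Gimap8. Across all 32851 promoter windows of the same length the median was 7 (quartiles 5 and 10) and 99.6% held at least 1, with fewer matches than Gimap5 in 95.0% and fewer than Gimap6 in 88.1%. The 6-base form TGGGAA (or TTCCCA) was in 1 of the 9 member windows, that of Gimap3, and in 25.6% of all windows. Of the 4 members called up at 24 h, Gimap8 and Gimap3 had fewer matches than the median window at the start sites shown. Gimap5 and Gimap6 had more. Whether the number of matches goes with the size of the change was not tested. These letters describe the windows, and binding of IKZF1 was not measured in these libraries.

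Gimap1, which is needed for the maintenance of mature B and T cells, and Gimap7, a GTPase that hydrolyses GTP as a dimer, had 0 counts in each of the 20 libraries. The position of both genes bears on this directly. Of 414 protein-coding genes that GENCODE M21 places wholly inside another gene on the same strand, 412 (99.5%) were at 0 in all 20 libraries, as were 750 of 755 (99.3%) inside a gene on the other strand. Among 11829 protein-coding genes free of overlap, 2174 (18.4%) were at 0. The zeros of Gimap1 and Gimap7 therefore carry no information on their transcription, and no upper limit was drawn from them. The same holds for Gimap1os, an antisense transcript inside the cluster that was also at 0. Under such counting the levels of Gimap5 come from the free bases at its 3′ end. The annotation release behind the counts is not stated, so that M21 stands in for it.

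**Figure D2:**
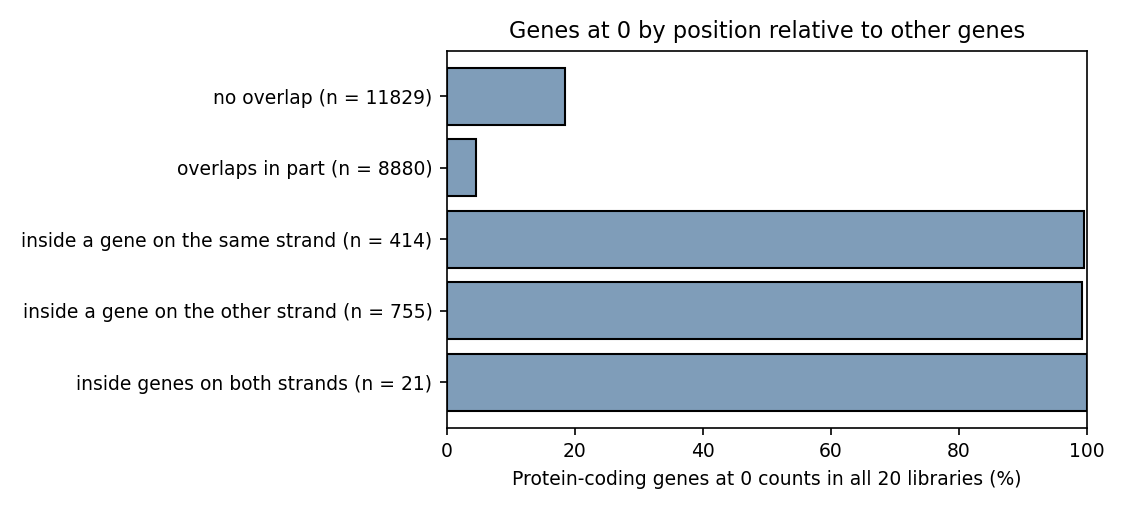
Share of protein-coding genes with 0 counts in all 20 libraries (x axis, %), for genes grouped by their position relative to other annotated genes (y axis, with the number of genes). Genes wholly inside another gene on either strand, the position of Gimap7 and Gimap1, were at 0 in 99.3% to 100% of cases, against 18.4% of genes without overlap.

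At 0 h, Gimap6, whose protein works in autophagy, stood highest per length of the 6 members that could be measured. It was at 1.36 CPM per kb of sequence not shared with another gene. Gimap1 and Gimap7 have no such sequence, and Gimap5 only its 3′ end. Gimap9 followed at 1.09 CPM per kb, Gimap8 at 0.874 and Gimap5 at 0.248, and the libraries of neighbours in this order did not overlap. Gimap4, known from apoptosis and cytokine secretion of T cells, was at 0.0207 CPM per kb and Gimap3, a relative of Gimap5 that affects the inheritance of mitochondrial DNA, at 0 counts in both libraries. At 24 h the order per length was Gimap8 (8.12 CPM per kb), Gimap6 (5.35), Gimap9 (1.24), Gimap5 (1.07), Gimap3 (0.413) and Gimap4 (0.0339), where the libraries of Gimap9 and Gimap5 overlapped and those of the other neighbours did not. Gimap8 thus went from the third to the first place among the members that could be measured.

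Over the time course as a whole, 4 of the 8 members changed (Gimap8, adjusted p = 1.93e-23, Gimap6, 2.28e-17, Gimap3, 4.12e-13, and Gimap5, 3.75e-09), against 51.9% of all genes tested. Of the others, Gimap9 passed the test (adjusted p = 3.25e-07) with no time point beyond 2-fold, Gimap4 did not pass it (adjusted p = 0.11), and Gimap1 and Gimap7 could not be tested. Gimap3 entered the test only through its late libraries, so that its call adds nothing to the count beyond its own values.

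Gimap8 encodes the largest protein of the family, with several GTP-binding domains in a row. It gave 12.2 and 11.7 CPM in the 2 libraries at 0 h (563 and 519 counts), 11.5 and 10.9 after 0.5 h, 7.59 and 7.42 after 1 h, and 6.71 and 7.29 after 2 h. It stood at 15.9 and 16.1 CPM after 6 h, 22.0 and 23.7 after 12 h, and 25.4 and 27.2 after 15 h. Values of 40.3 and 40.5 CPM after 18 h, 70.6 and 66.9 after 21 h, and 108 and 114 after 24 h followed. Both libraries at 1 and 2 h lay below both at 0 h, and from 6 h on every library lay above them. The log2 fold change of Gimap8 against 0 h was -0.67 at 1 h (adjusted p = 9.05e-08) and -0.77 at 2 h (SE 0.0733, adjusted p = 1.06e-08), within 2-fold, then 0.42 at 6 h (adjusted p = 6.01e-06) and 3.22 at 24 h (SE 0.0581, adjusted p = 1.09e-21), a 9.29-fold rise. Each step after 2 h was upward, by 1.19 from 2 to 6 h (adjusted p = 2.05e-11), 0.52 from 6 to 12 h (adjusted p = 7.23e-07) and 2.28 from 12 to 24 h (adjusted p = 6.51e-19) on the log2 scale.

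Gimap6 had 8.75 and 9.30 CPM at 0 h, 5.66 and 6.97 after 0.5 h, 5.44 and 4.89 after 1 h, and 4.98 and 4.67 after 2 h. It gave 8.38 and 9.14 CPM after 6 h, 10.6 and 9.57 after 12 h, and 12.3 and 12.2 after 15 h. The last 3 time points gave 15.5 and 17.8, 28.1 and 24.6, and 35.8 and 35.3 CPM. The libraries at 0.5, 1 and 2 h all lay below those at 0 h, those at 6 h overlapped them, and those from 12 h on lay above. Gimap6 was lower by a log2 fold change of -0.50 at 0.5 h (adjusted p = 0.00202), -0.80 at 1 h (adjusted p = 2.23e-06) and -0.90 at 2 h (SE 0.110, adjusted p = 4.09e-07), all within 2-fold. It stood at -0.041 at 6 h (adjusted p = 0.731) and at 1.98 at 24 h (SE 0.0875, adjusted p = 5.59e-15), a 3.94-fold rise.

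Gimap9, a family member of which little is known, was lower from 0.5 h on, as was Gimap6. It gave 3.20 and 3.31 CPM at 0 h, 1.57 and 2.07 after 0.5 h, 2.03 and 2.09 after 1 h, and 2.24 and 2.11 after 2 h. Both 6 h libraries (3.50 and 3.69 CPM) were above those at 0 h, and from 12 to 24 h values ranged from 2.33 to 4.51 CPM. Its log2 fold change was -0.82 at 0.5 h (SE 0.148, adjusted p = 0.000519), -0.66 at 1 h (adjusted p = 0.000577) and -0.58 at 2 h (adjusted p = 0.00148). At 21 h Gimap9 was higher than at 0 h, within 2-fold, by 0.42 (SE 0.130, adjusted p = 0.00562), with 4.51 and 4.24 CPM. Its neighbour Gimap8 was 9.29-fold up at 24 h, whereas Gimap9 stood at 0.19 at 24 h (SE 0.132, adjusted p = 0.189), with 3.19 and 4.21 CPM. The ratio of Gimap8 to Gimap9 CPM went from 3.80 and 3.53 at 0 h to 33.8 and 27.0 after 24 h, and this difference between members was not tested.

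Gimap5 is the member best known for lymphocyte survival, since its loss leaves rats and mice with few T cells. Its 3′ end gave 14 and 21 counts at 0 h (0.302 and 0.473 CPM), 8 and 17 after 0.5 h, 7 and 7 after 1 h, 4 and 6 after 2 h, and 5 and 13 after 6 h. Counts were 13 and 19 after 12 h, 22 and 19 after 15 h, 34 and 34 after 18 h, 24 and 38 after 21 h, and 55 and 63 after 24 h (1.64 and 1.71 CPM). All libraries from 1 to 6 h lay below those at 0 h in CPM, and those from 18 h on lay above. Gimap5 was called down at 2 h (log2 fold change -1.63, SE 0.454, adjusted p = 0.00414) and up at 24 h (2.11, SE 0.255, adjusted p = 1.52e-07), 4.32-fold. The 2 h call rests on few counts and was lost without 0 h replicate 2 (-1.28, adjusted p = 0.0607), 2 h replicate 1 (-1.46, adjusted p = 0.0362) or 2 h replicate 2 (-1.86, adjusted p = 0.0189), and with DESeq2 (-1.65, adjusted p = 0.0144).

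Gimap3 went from undetected to detected. It had 0 counts in both libraries at 0 h and at 2 h, and no more than 2 in any library up to 6 h. Counts were 6 and 3 after 12 h, 4 and 8 after 15 h, 16 and 12 after 18 h, 36 and 41 after 21 h, and 85 and 101 after 24 h (2.53 and 2.74 CPM). The late libraries did not overlap the early ones from 12 h on. Set against a floor of 3 counts per library at 0 h, Gimap3 was at least 1.87-fold higher at 12 h (adjusted p = 0.000998), at least 5.07-fold at 18 h (adjusted p = 2.55e-06) and at least 39.9-fold at 24 h (adjusted p = 1.75e-12). Its log2 fold change from 12 to 24 h was 4.42 (SE 0.299, adjusted p = 1.16e-10). The spliced transcripts of Gimap3 and Gimap5 are similar in sequence, and 3.3% of the 75-base words of Gimap3, the read length, also occur in Gimap5.

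Gimap4 had 4 and 10 counts at 0 h, 8 and 10 after 24 h, and 0 to 8 in the libraries between. It was not called at any time point, with a log2 fold change of 0.72 at 24 h (SE 0.590, adjusted p = 0.273).

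**Figure D3:**
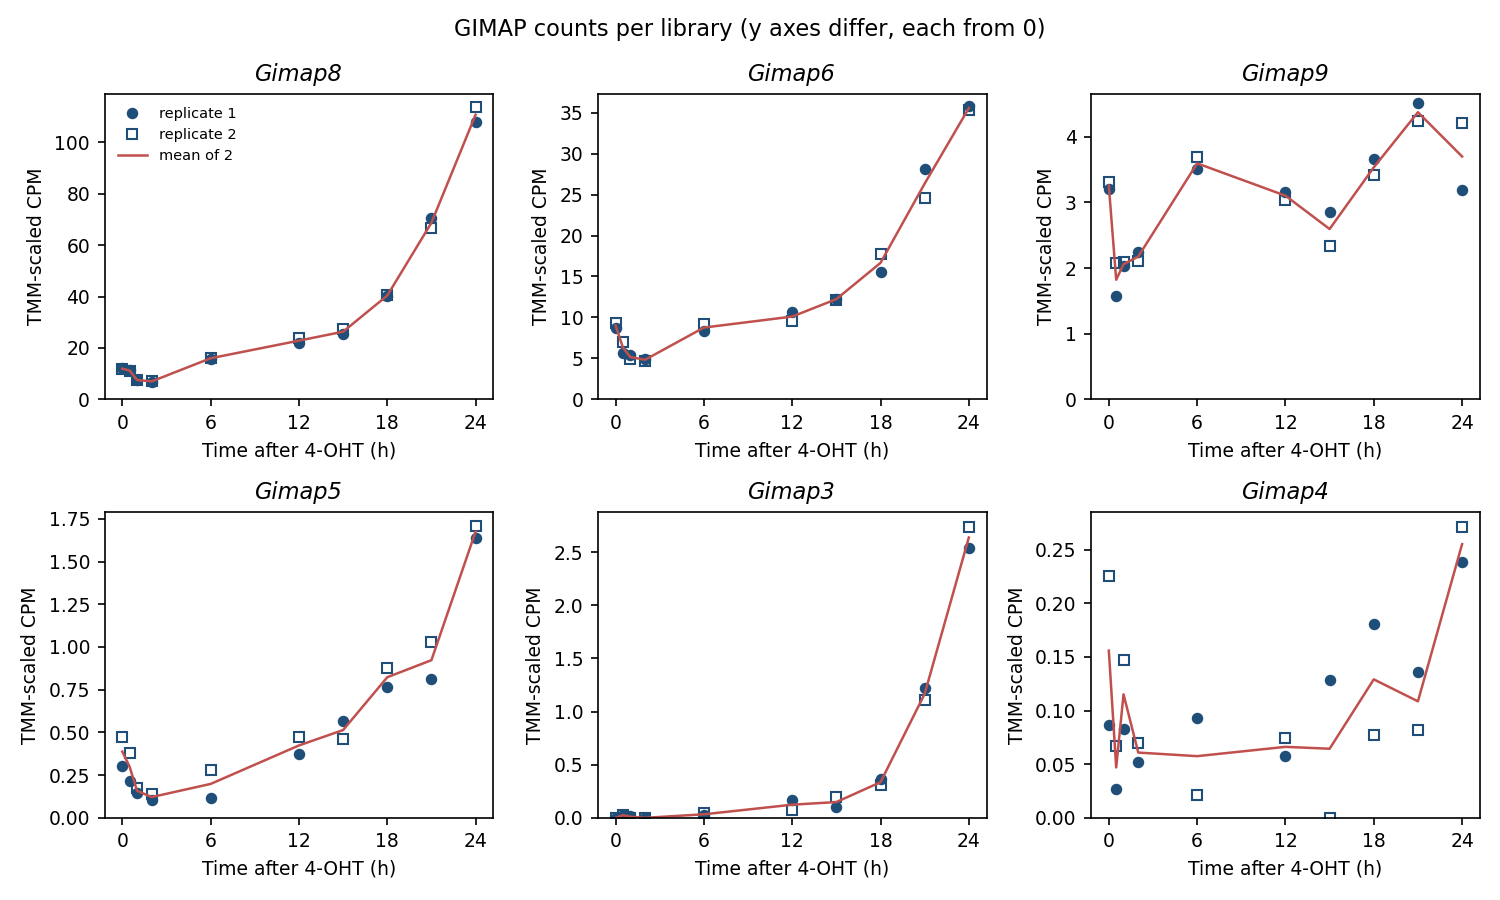
CPM of the 6 members with counts (y axis, a separate linear axis from 0 for each gene) against time after 4-OHT in h (x axis), with replicate 1 as filled circles, replicate 2 as open squares and their mean as a line. Gimap8, Gimap6 and Gimap5 dipped to a lowest mean at 2 h and were highest at 24 h, Gimap3 appeared late, Gimap9 ended near its starting level, and Gimap4 stayed under 0.3 CPM.

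Counted together, the members fell into an early and a late pattern. Here and below, counts are given out of 8 members, of which 6 were tested, while background shares are of the genes tested. At 0.5 h none was called (edgeR, against 0.464% of all genes in either direction; 2 members at an unadjusted p under 0.05 and 0 called by DESeq2), but Gimap9 and Gimap6, 2 of 8, were lower at an adjusted p under 0.01 at any fold, as were 4.74% of all genes. At 1 h again none was called (background 7.16%, 4 members at an unadjusted p under 0.05, 0 by DESeq2), and 3 of 8 (Gimap8, Gimap9 and Gimap6) were lower at any fold, against 17.1%. At 2 h 1 of 8, Gimap5, was called down (background 6.91%), and 4 of 8 (Gimap8, Gimap9, Gimap6 and Gimap5) were lower at any fold, against 23.8%. The median log2 fold change of the 5 members with a fold at 2 h, all but Gimap3 of those tested, was -0.90, and that of all genes was 0.026. The early dip was thus mostly a change of less than 2-fold.

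Gimap8, Gimap9 and Gimap6 came back up between 2 and 6 h. In that step Gimap8 was called up, 1 of 8 against a background of 3.91%, and 3 of 8 (Gimap8, Gimap9 and Gimap6) were higher at any fold, against 19.6%. Gimap6 rose by 0.86 (adjusted p = 1.92e-06) and Gimap9 by 0.73 (adjusted p = 0.000244) on the log2 scale. Gimap5 had not returned, with a log2 fold change of 0.70 from 2 to 6 h (adjusted p = 0.292) and of -0.93 at 6 h against 0 h (adjusted p = 0.0441). At 6 h itself none of the members was called against 0 h (edgeR, background 20.1%, 3 members at an unadjusted p under 0.05, 0 by DESeq2), and from 6 to 12 h none was called either (edgeR, background 4.79%, 3 members at an unadjusted p under 0.05, 0 by DESeq2).

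Members called up against 0 h numbered 1 at 12 h (Gimap3; 13.2% of all genes tested), 2 at 15 h (with Gimap8; 15.3%), 3 at 18 h (with Gimap5; 19.1%) and 4 at 21 h (with Gimap6; 20.1%). At 24 h the same 4 of 8 members, of which 6 were tested, were called up and none was called down. Of the 16601 genes tested 3323 were called up and 3329 down, together 40.1%. The median log2 fold change over the 6 tested members was 2.04, also with Gimap3 at its bound, and that of all genes was -0.011. From 12 to 24 h, a comparison without the 0 h libraries but with the same 24 h libraries, Gimap8, Gimap6, Gimap5 and Gimap3 were called up. These are 4 of 8 members, against a background of 6.43%. Gimap3 entered the test only through its late libraries. Its late calls and its place in the 24 h median thus add nothing beyond its own values. The 12 h call of Gimap3 rests on a fitted fold against 0 counts, while its bound of 1.87-fold is under the 2-fold limit, and it was lost without 12 h replicate 1. The call of Gimap5 was lost at 18 h without 0 h replicate 1 or 18 h replicate 2, and at 21 h without 0 h replicate 1 or 21 h replicate 2.

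**Figure D4:**
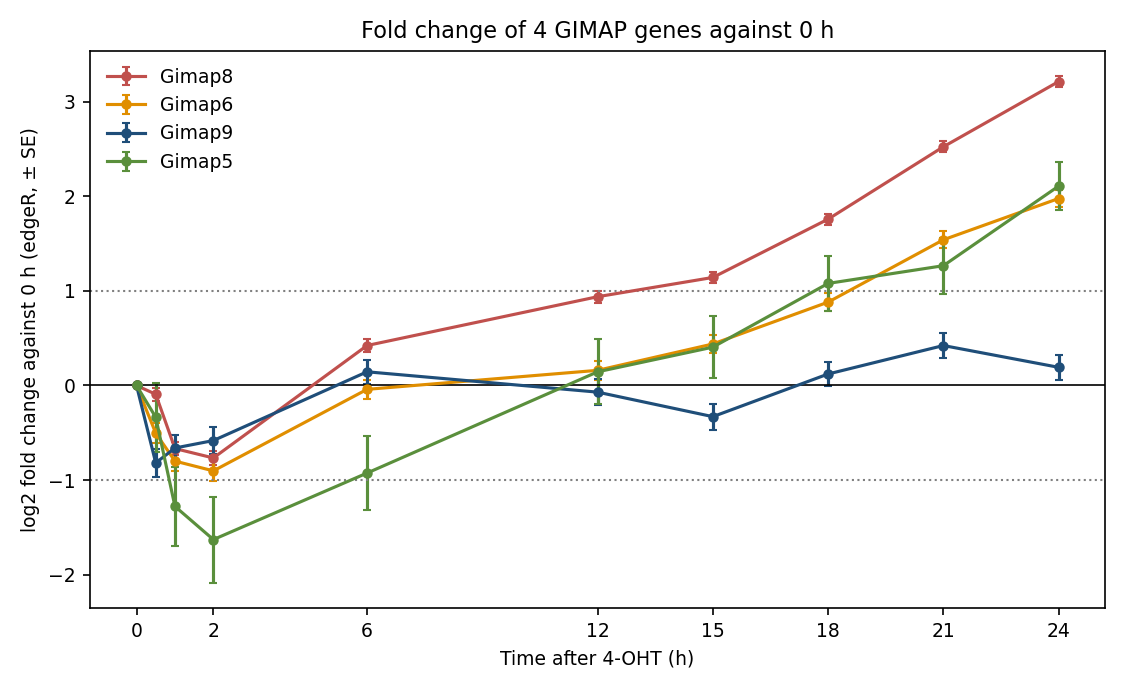
Log2 fold change against 0 h (y axis, edgeR, error bars are SE) of Gimap8, Gimap6, Gimap9 and Gimap5 over time after 4-OHT in h (x axis), with the dotted lines at a 2-fold change. All 4 genes lay below 0 at 1 and 2 h. At 24 h Gimap8 reached 3.22, Gimap5 2.11 and Gimap6 1.98, while Gimap9 was at 0.19.

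Being lower at 2 h against 0 h and then called up from 12 to 24 h, a criterion chosen after the values were seen and drawn from comparisons that share no library, was met by Gimap8, Gimap6 and Gimap5. These are 3 of 8 members, and 190 genes, 1.14% of those tested, met it. The 4 members that changed reached the midpoint between their 0 h and 24 h level, on a log2 scale, at 17.3 h for Gimap8 (17.3 and 17.2 h in the replicates), 18.2 h for Gimap5 (17.6 and 18.8 h), 18.5 h for Gimap6 (18.7 and 18.2 h) and 18.5 h for Gimap3 (18.3 and 18.7 h). The replicates of Gimap5, Gimap6 and Gimap3 overlapped in this measure. Gimap3 had 0 counts at 0 h, so that its midpoint on the log2 scale depends on the 0.1 CPM added before the log. On a linear scale the midpoints were later, at 20.2, 21.4, 19.7 and 21.3 h for the same order of genes.

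The summed level of the 8 members was 24.5 and 25.0 CPM at 0 h, 14.1 and 14.3 after 2 h, and 151 and 158 after 24 h. Gimap1 and Gimap7 entered this sum with uninformative counts of 0, and Gimap5 with only the free 19.5% of its span. Shares of this sum therefore describe what could be counted, which is less than the transcription of the whole family. Gimap8 made up 49.6% and 46.8% of this sum at 0 h and 71.3% and 72.0% at 24 h, and Gimap6 35.7% and 37.2% at 0 h and 23.7% and 22.4% at 24 h. Across the 20 libraries, which share their time points and libraries, Pearson's r of log2 CPM was 0.985 between Gimap8 and Gimap6, 0.959 between Gimap8 and Gimap3, 0.933 between Gimap8 and Gimap5, and 0.726 between Gimap8 and Gimap9. Gimap4 correlated with the others at 0.442 to 0.534.

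Gm28053, the read-through gene, is counted in the gaps around Gimap7, Gimap1 and Gimap5. It gave 104 and 97 counts at 0 h, 80 and 86 after 2 h, and 206 and 244 after 24 h. Gm28053 was called up at 24 h (log2 fold change 1.53, SE 0.121, adjusted p = 1.67e-10) but did not pass the test at 2 h (-0.12, adjusted p = 0.503), where Gimap8 and Gimap6 were lower. Per kb of its own sequence it stood at 0.137 CPM at 0 h and 0.396 at 24 h, below Gimap8, Gimap6, Gimap9 and Gimap5. It was the only one of the 5 other genes between the outermost members with enough counts to be tested.

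Outside the cluster, few genes could be tested. Of the 10 genes before Gimap8, 3 were tested and Lrrc61, a leucine-rich repeat gene, was called up at 24 h (log2 fold change 1.29, SE 0.0736, adjusted p = 5.34e-13), and AI854703, next to Gimap8, had 1 to 10 counts and was not tested. Of the 10 genes after Gimap3, 2 were tested, and both were called down at 2, 6 and 24 h, away from the members' late rise. Tmem176b, a membrane channel gene of antigen-presenting cells, had 73 and 50 counts at 0 h, 6 and 2 after 2 h, and 1 and 1 after 24 h (log2 fold change at 2 h -3.75, SE 0.391, adjusted p = 6.27e-08). Its overlapping partner Tmem176a had 25 and 17 counts at 0 h and 3 and 3 after 2 h, and with 0 counts in both libraries at 24 h it was at least 5.40-fold lower than at 0 h. Gm30781, next to Gimap3, was at 0.

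GIMAP proteins are known to act with the BCL2 family, with the autophagy protein GABARAPL2 and with the kinase GSK3B, and the 5 genes of that list were all tested. At 24 h Gabarapl2 (log2 fold change 1.02, adjusted p = 3.87e-11) and Gsk3b (1.16, adjusted p = 7.96e-18) were called up and Bcl2, the antiapoptotic gene, was called down, from 341 and 350 CPM at 0 h to 58.5 and 61.9 CPM (-2.52, adjusted p = 3.82e-22). Bcl2l1, also antiapoptotic, was called down at 2 h (-1.29, adjusted p = 7.5e-19) and stood at 0.47 at 24 h, where it and the proapoptotic Bax (-0.51) were not called.

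The list of survival and quiescence genes of resting lymphocytes held 18 genes, of which 15 had enough counts to be tested. At 2 h 2 were called up (S1pr1 and Ighd) and 2 down (Lef1 and Cd44). At 24 h 9 were called up, among them S1pr1, the receptor for exit from lymphoid tissue (log2 fold change 5.77, SE 0.340, from 3 and 4 counts to 152 and 155), Ets1, a lymphoid transcription factor (3.46, SE 0.0580), Btg2 (2.78), Foxo1, a regulator of lymphocyte quiescence (2.73), Satb1 (1.98), Btg1 (1.80), Il7r, the interleukin-7 receptor (1.67), Ighd (1.45) and Cr2 (1.14). Called down were Bcl2, Fcer2a (-1.60), Tcf7 (-1.28), Lef1 (-1.12) and Cd44 (-1.02), and Klf2 was not called. Of the 15 genes 14 were thus called in either direction, beside the 40.1% of all genes given above, and the median log2 fold change of the list was 1.45. The list was chosen with earlier results of these data known, so that this share describes the list and tests nothing. Gimap8, at 3.22, lay between Btg2 and Ets1.

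**Figure D5:**
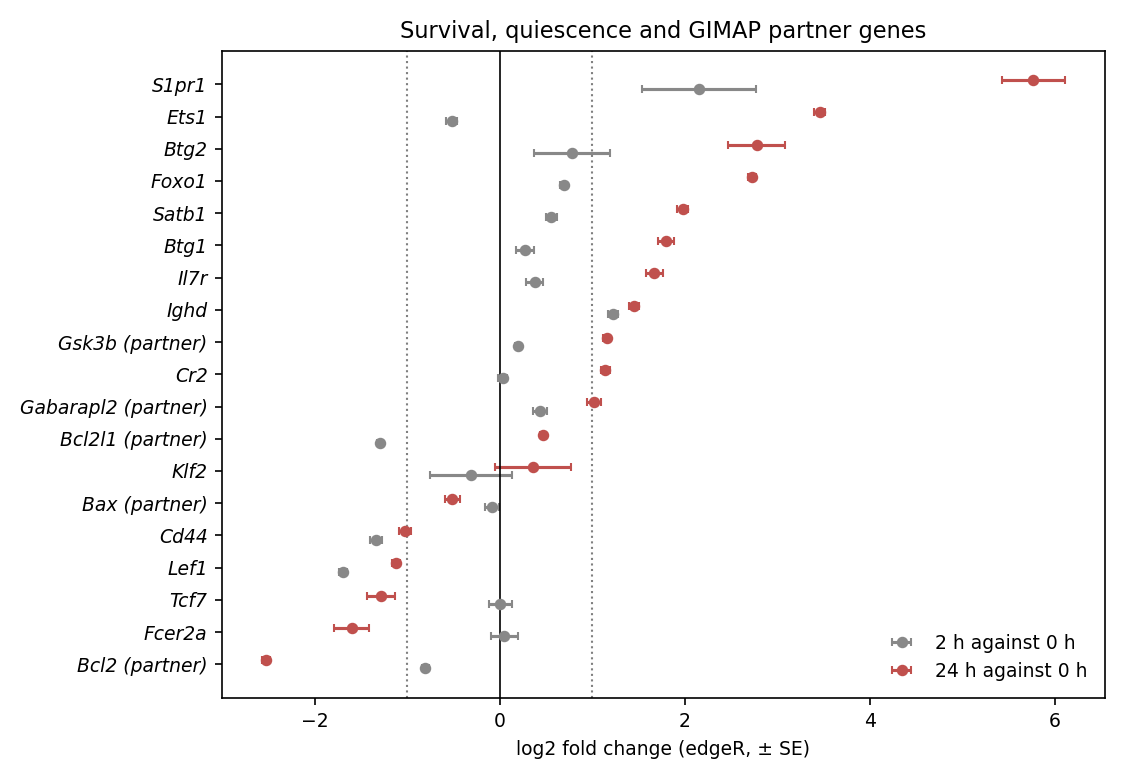
Log2 fold change (x axis, edgeR, error bars are SE) at 2 h and 24 h against 0 h of the tested genes of the survival and quiescence list and of the GIMAP partner list (y axis, partners marked), with dotted lines at a 2-fold change. At 24 h S1pr1, Ets1, Btg2 and Foxo1 were highest, between 2.73 and 5.77, and Bcl2 was lowest at -2.52.

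Over the 12053 genes that averaged at least 1 CPM, those with the highest Pearson's r of log2 CPM with each changed member over the 20 libraries were named. For Gimap8 these were Xpnpep2, an aminopeptidase gene (0.993), Jhy (0.990) and Jak1, a kinase gene of cytokine receptors (0.990), and for Gimap6 Jak1 (0.984), Xpnpep2 (0.981) and Evi5 (0.980). Xpnpep2 went from 3.09 CPM at 0 h to 2.21 at 2 h, 5.36 at 12 h and 18.8 at 24 h. Jak1 went from 591 to 495, 716 and 1384 CPM at the same times. Both dipped and rose late as Gimap8 did, but by smaller folds. For Gimap5 they were Nf1 (0.960), Lpp (0.957) and Jhy (0.954). For Gimap3 they were Pcca (0.990), BE692007 (0.984) and Ms4a6b, a gene of the MS4A membrane protein family (0.981), and Ms4a6b was at 0.0437 CPM at 0 h, 0.403 at 12 h and 17.7 at 24 h.

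Since GIMAP genes are also high in T and NK cells, markers of other cells were measured beside them. The 11 T cell markers summed to 8.90 to 25.0 CPM in the libraries, with 19.5 CPM at 0 h, 10.2 at 2 h and 23.2 at 24 h, most of it Zap70. Of these 11, Cd2 was at 0, Cd3e, Cd3g, Cd4, Bcl11b and Cd3d had at most 5 counts in any library, and Cd8a, Cd8b1, Lat and Cd5 reached 24, 26, 57 and 152 counts. At 2 h Cd8b1 was called up and Zap70 down, and at 24 h the 5 tested T cell markers were all within 2-fold of 0 h. The 5 NK markers summed to 0.406 to 3.61 CPM, with 0.638 CPM at 0 h and 3.34 at 24 h, where Klrb1c, Klrk1 and Prf1 were called up, while Gzmb was at 0 and Ncr1 had at most 2 counts. The 6 myeloid markers summed to 0.678 to 2.18 CPM (Itgam at 0) and the 4 erythroid markers to 0.156 to 0.654 CPM (Hbb-bs at 0). At 24 h the members' sum was 151 and 158 CPM, and the T and NK sums were 23.2 and 3.34 CPM. These sums cover genes that differ in number and length, so that their sizes cannot be compared. The part of other cells, or of the NK markers' rise, in the result was not tested.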

How the data were processed

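Chromatin-associated RNA from 20 libraries was analysed as 1 deposited table of raw counts per gene. The authors used the nf-core/rnaseq workflow with STAR on mm10 and counted reads per gene with featureCounts, introns included. The annotation release, strand setting and treatment of shared reads are not given in the sources used here. The submitters' processing notes also name CASAVA 2.17. Columns were matched to libraries by name, and groups came from the labels.

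Counts were fitted with edgeR 4.0.16 (quasi-likelihood test, TMM scaling, a factor for time, all 20 libraries, no block) in R 4.3.3 with limma 3.58.1 after a filter of at least 10 counts in at least 2 libraries, with Benjamini-Hochberg adjustment over 16601 genes. DESeq2 1.42.0 was an alternative. The fit was tested on simulated data. Totals of 33296158 to 46868954 counts limit precision, and floors of 3 counts cover counting error only, since reads carry no molecular identifiers. SE is the log2 fold change divided by the root of F. Positions and overlaps came from GENCODE M21, which holds 55154 of 56239 gene identifiers, and promoters from RefSeq (GRCm38.p6). Correlations and midpoints used log2 of CPM plus 0.1.

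Genes named are the 8 members, genes of the neighbour, partner and survival lists called at 24 h or next to an outermost member, and the 3 genes most alike to each changed member. Other genes were named after their values were seen. Members and lists were chosen with earlier results of these data known. Alternatives were other scalings, filters and thresholds, DESeq2, a replicate block, fits of the 4 libraries compared, a linear profile and each library left out.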

Additional observations from a re-analysis of the deposited data

How the results depend on the processing

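Counts of members called did not differ under DESeq2's size factors, without a filter on low counts, or with a replicate block (4 of 4 kept at 24 h). Deviations of same-numbered libraries correlated at -0.631 to 0.420 (mean 0.0208, 17 of 45 pairs of time points over 0.1). This spread does not settle whether replicate numbers pair the libraries or whether some time points share a batch. Requiring 10 counts in every library removes Gimap5, Gimap3 and Gimap4 by construction and left 2 members changed over the time course, 0 called at 2 and 12 h, 1 at 15 and 18 h, and 2 at 21 h, at 24 h and from 12 to 24 h. An adjusted p under 0.05 added Gimap5, giving 1 at 1 h and 1 from 6 to 12 h, and Gimap4 from 12 to 24 h. DESeq2 gave 0 at 2 h (Gimap5, -1.65), and a fit of the 4 libraries alone gave 0 at 12 h. Leaving out each library gave 4 to 5 members changed over the time course, 0 to 1 called at 0.5, 2 and 12 h, 2 to 3 at 15 and 18 h, 3 to 4 at 21 h, 0 at 1 and 6 h and from 6 to 12 h, 1 from 2 to 6 h, and 4 at 24 h and from 12 to 24 h. The added members were Gimap9 without 0.5 h replicate 2, and Gimap4 without 15 h replicate 1. Among log2 fold changes recomputed at 1, 2, 6, 12 and 24 h, signs turned only for values not called. Gimap9 at 24 h was -0.066 with library totals and -0.028 to 0.37 with a library left out (lowest without 24 h replicate 2). Gimap5 at 12 h ran from -0.15 (without 0 h replicate 1; -0.046 without 12 h replicate 2) to 0.49, Gimap4 at 1 h from -0.98 to 0.37 (without 0 h replicate 2), and Gimap6 at 6 h from -0.11 to 0.019 (without 6 h replicate 1; 0.0033 without 0 h replicate 2). The cause was not tested. Library totals move the median of all genes at 24 h from -0.011 to -0.27 and the calls from 3323 up and 3329 down to 37.9% up (21 h 51.0% to 39.6%, 12 to 24 h 41.5% to 23.4%), and with them and with DESeq2 the 18 h call of Gimap5 was lost. Midpoints moved to 19.7 to 21.4 h on a linear scale. Depth limits Gimap4, with at most 10 counts a library, and the early values of Gimap5 and Gimap3.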
